A study of Mus musculus with 2 samples.

Results

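The genes examined here encode the proteins of the cytosolic ribosome. They were taken by name from the deposited expression table, as every row whose symbol starts with Rpl or Rps and a digit, plus Rpsa, Rplp0, Rplp1 and Rplp2, without the S6 kinases and without rows that hold a pseudogene symbol ending in -ps and a number. The rule found 87 of the 24340 rows. Of these, 45 encode proteins of the large subunit, 31 encode proteins of the small subunit, 10 are paralogs whose symbol ends in l, l and a digit, or rt, and 1, Rps19bp1, encodes a protein that binds Rps19 and is not part of the ribosome. The row for Rpl34 was outside the rule because it is a joint row with Rpl34-ps1.

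The study compared trunk tissue of E8.5 mouse embryos without Aldh1a2, the retinaldehyde dehydrogenase that makes retinoic acid (RA) in the trunk, with that of wild-type embryos, to find genes that respond to the loss of RA. The labels give 1 Aldh1a2-/- sample and 1 wild-type sample, and the methods describe 2 trunks of each genotype, from matings of heterozygous parents and genotyped from yolk sac DNA, with head, heart and caudal progenitor zone cut away. The Aldh1a2 knockout is not limited to a tissue. With 1 sample per genotype there is no replicate check, and no test between genotypes was possible for any value below.

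Ribosomal proteins fold onto the ribosomal RNA in the nucleolus, and each is needed in nearly equal amounts because a ribosome holds a single copy of most of them. Their mRNAs are among the most abundant in growing embryonic cells, and many begin with a run of pyrimidines, the terminal oligopyrimidine tract, through which the mTOR pathway controls their translation. Mice with reduced doses of single ribosomal proteins show defects of skeleton, pigment and blood.

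The values are FPKM, the number of fragments on a gene scaled to the length of its transcript and to the size of the library, so levels of different genes can be set side by side per length. A gene was called measured when it exceeded 0.5 FPKM in both samples, and higher or lower when the log2 of its FPKM in Aldh1a2-/- over that in wild type was above 0.85 or below -0.85, the floor and cutoffs of the study. Steps between the lowest FPKM values gave a depth of about 31700000 fragments in the Aldh1a2-/- sample and 30100000 in the wild-type sample. The intervals given below are 95% Clopper-Pearson intervals on the log2 ratio, computed from fragment numbers estimated with this depth. They cover counting error only. The variation between embryos and the division of reads that match more than 1 gene are outside them. Aldh1a2 itself was at 11.7 FPKM in Aldh1a2-/- trunk and 128 FPKM in wild-type trunk.

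Most ribosomal protein mRNAs stood at nearly the same level in the Aldh1a2-/- sample as in the wild-type sample. Of the 87 rows, 81 were measured, and 63 of these had a log2 ratio between -0.5 and 0.5. The same held for 3429 of all 9506 measured genes and 1092 of the 1901 with the highest levels. In all 10, or 12.3%, were past a cutoff, 4 higher and 6 lower, beside 45.6% of all 9506 measured genes, 23.6% higher and 22.0% lower. Rescaled so that both samples have the same FPKM total, the counts were 5 higher and 3 lower. Over all 9506 measured genes they were then 2610 and 1805. Ratios spread less among abundant genes, and among the 1901 measured genes with the highest levels, a set that holds 72 of the 74 measured subunit genes, 20.8% were past a cutoff. Over the 81 rows the log2 ratios had a median of -0.04 and an SD of 0.52 across genes, against a median of 0.02 and an SD of 1.43 over all measured genes and 0.03 and 0.84 over the 1901 abundant ones. These are bulk samples, so a lower value from fewer cells of a type cannot be told apart from less RNA per cell.

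**Figure D1:**
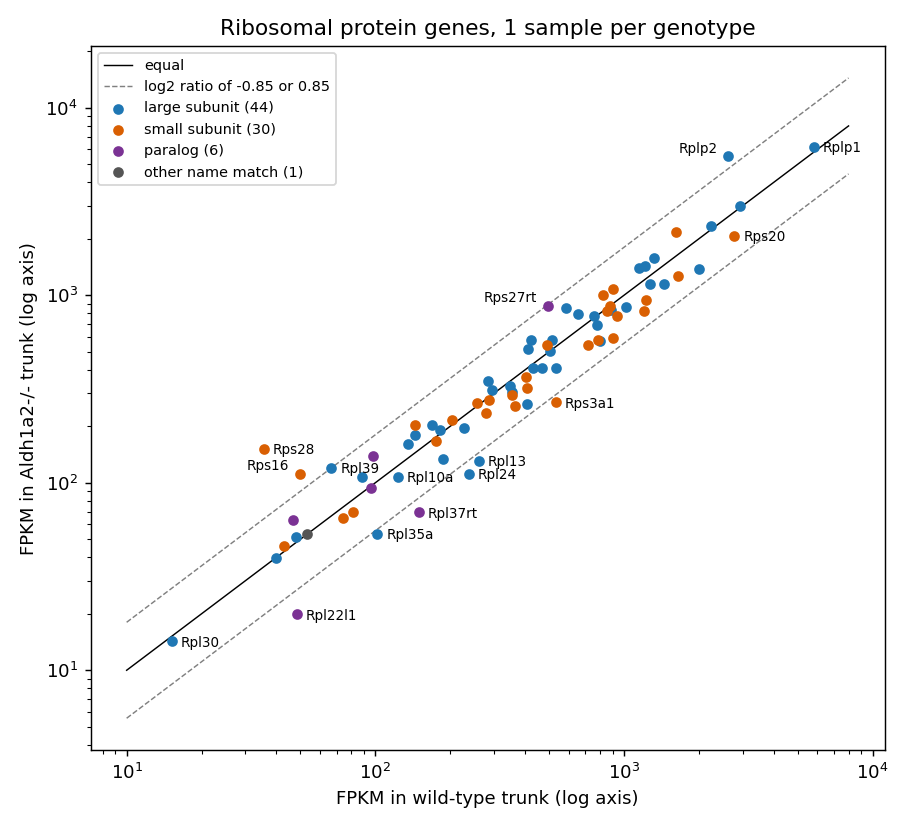
FPKM of each measured ribosomal protein gene in the Aldh1a2-/- sample (vertical, log axis) against the wild-type sample (horizontal, log axis), coloured by class, with the line of equal values (solid) and log2 ratios of -0.85 and 0.85 (dashed). Most of the 81 points lie between the dashed lines, with Rps28 farthest above at 152 and 35.7 FPKM and Rpl22l1 farthest below at 19.9 and 48.2 FPKM in Aldh1a2-/- and wild-type trunk.

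Tissue markers differed between the samples far more than the ribosomal protein genes did. All 9 measured of 10 yolk sac visceral endoderm markers were higher, and Amn was listed at 0 in wild type. Summed over all 10, the level was 6731 FPKM in the Aldh1a2-/- sample and 451 FPKM in the wild-type sample. Of 8 red blood cell markers all 6 measured were higher, and Gata1 was listed at 0 in wild type. The sums over all 8 were 5957 and 301 FPKM in Aldh1a2-/- and wild-type trunk. All 6 measured of 11 somite and trunk mesoderm markers were lower. The sums over all 11, measured or not, were 80.9 and 350.3 FPKM in Aldh1a2-/- and wild-type trunk. Markers of the labelled tissue were thus found in both samples. Of the 5 not measured, Tbx6 and Ripply1 were listed at 0 in wild type and Tbx18 and Mesp2 at 0 in Aldh1a2-/-. Of 7 heart muscle markers 1, Tnnt2, was measured and higher, and Nkx2-5 was listed at 0 in both. The sums over all 7 were 45.6 and 22.6 FPKM in Aldh1a2-/- and wild-type trunk. The other heart genes did not go one way: Myl4 was listed at 0 in Aldh1a2-/- trunk and at 7.15 FPKM in wild-type trunk, and Tnni1 was at 13.4 and 0.436 FPKM. The part of these differences in the ribosomal protein values was not tested.

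The large subunit genes summed to 37304 FPKM in Aldh1a2-/- trunk and 34463 FPKM in wild-type trunk, which is 4.91% and 4.07% of all FPKM in the table. Without Rplp2 alone the sums were 31788 and 31839 FPKM in Aldh1a2-/- and wild-type trunk. Their median log2 ratio over 44 measured genes was 0.02, with the middle 50% between -0.21 and 0.27, and 23 of the 44 were above 0. The small subunit genes summed to 17490 FPKM in Aldh1a2-/- trunk and 19481 FPKM in wild-type trunk, 2.30% of all FPKM in each sample. Their median over 30 measured genes was -0.16, with the middle 50% between -0.38 and 0.10, and 20 of the 30 were below 0. These medians are of the size of the scaling between the samples: all FPKM sum to 759577 in Aldh1a2-/- and 846496 in wild type, so that rescaling both samples to one total (the TPM scale) adds 0.16 to every log2 ratio, and upper quartile scaling takes away 0.10. The totals include small RNA rows of high FPKM, whose part in this shift was not tested. Snord15b was at 21031 FPKM in Aldh1a2-/- and 34839 FPKM in wild type, and Snord16a went the other way, at 5149 and 1805 FPKM. The large subunit median was 0.17 on the TPM scale and changed sign, to -0.09, with upper quartile scaling, while the small subunit median was -0.01 and -0.27, and whether the subunits differ was not tested.

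**Figure D2:**
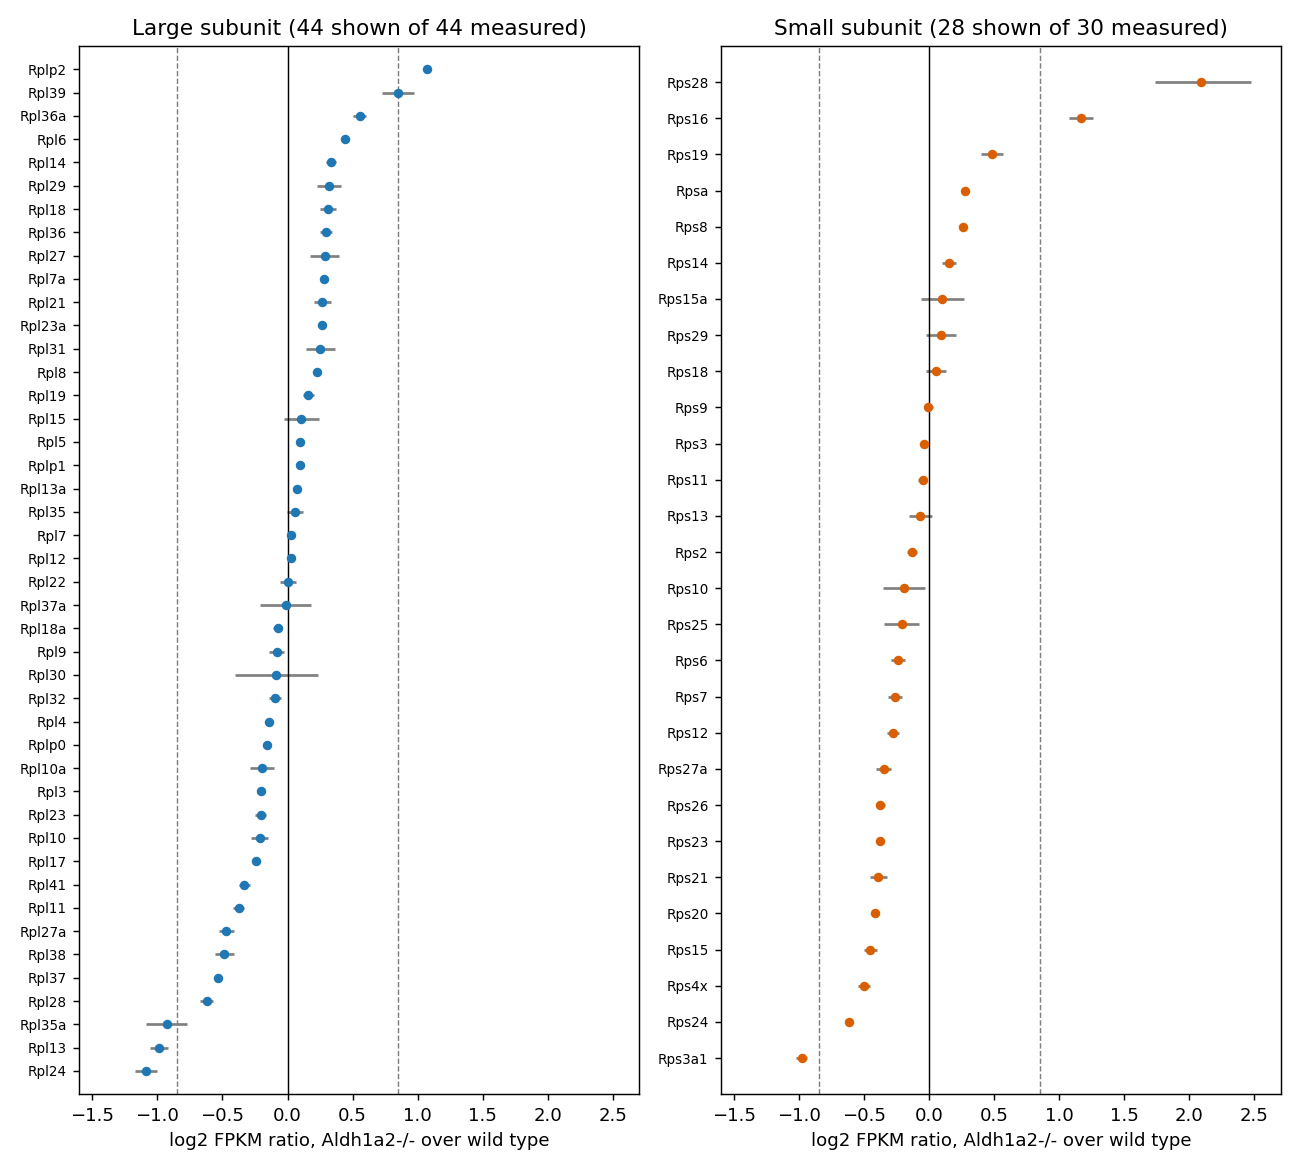
Log2 FPKM ratio of Aldh1a2-/- over wild type for the 44 measured large subunit genes (left) and 28 of the 30 measured small subunit genes (right), with 95% counting intervals (grey bars, counting error only) and dashed lines at -0.85 and 0.85. In the large subunit 2 genes are past the upper and 3 past the lower line, and in the small subunit 2 and 1.

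The 74 measured subunit genes spanned a wide range of levels within each sample. Rplp1 was the most abundant at 6192 FPKM in Aldh1a2-/- trunk and 5799 FPKM in wild-type trunk, ranks 15 and 18 of all rows, and Rpl30 had the lowest value at 14.3 FPKM and 15.2 FPKM. The highest level was 434 times the lowest in the Aldh1a2-/- sample and 383 times in the wild-type sample. Most of the signal at the Rpl30 locus is in a second row, described below, and without Rpl30 these folds were 157 and 163 in the Aldh1a2-/- and wild-type samples. The order of the genes was nearly the same in both samples, with a Spearman correlation across the 74 genes of 0.97 and a Pearson correlation of log2 FPKM of 0.96; the points share their gene models and mapping, and genes are not independent replicates. Position in this order went with neither coding length (Spearman 0.06) nor the absolute log2 ratio (0.001). Levels tended to be lower in genes that share more coding sequence with other genes, a limit described below. The Spearman correlation of level was -0.21 with the share of such sequence and -0.24 with the number of genes sharing it. These correlations describe the 74 genes and were not tested.

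**Figure D3:**
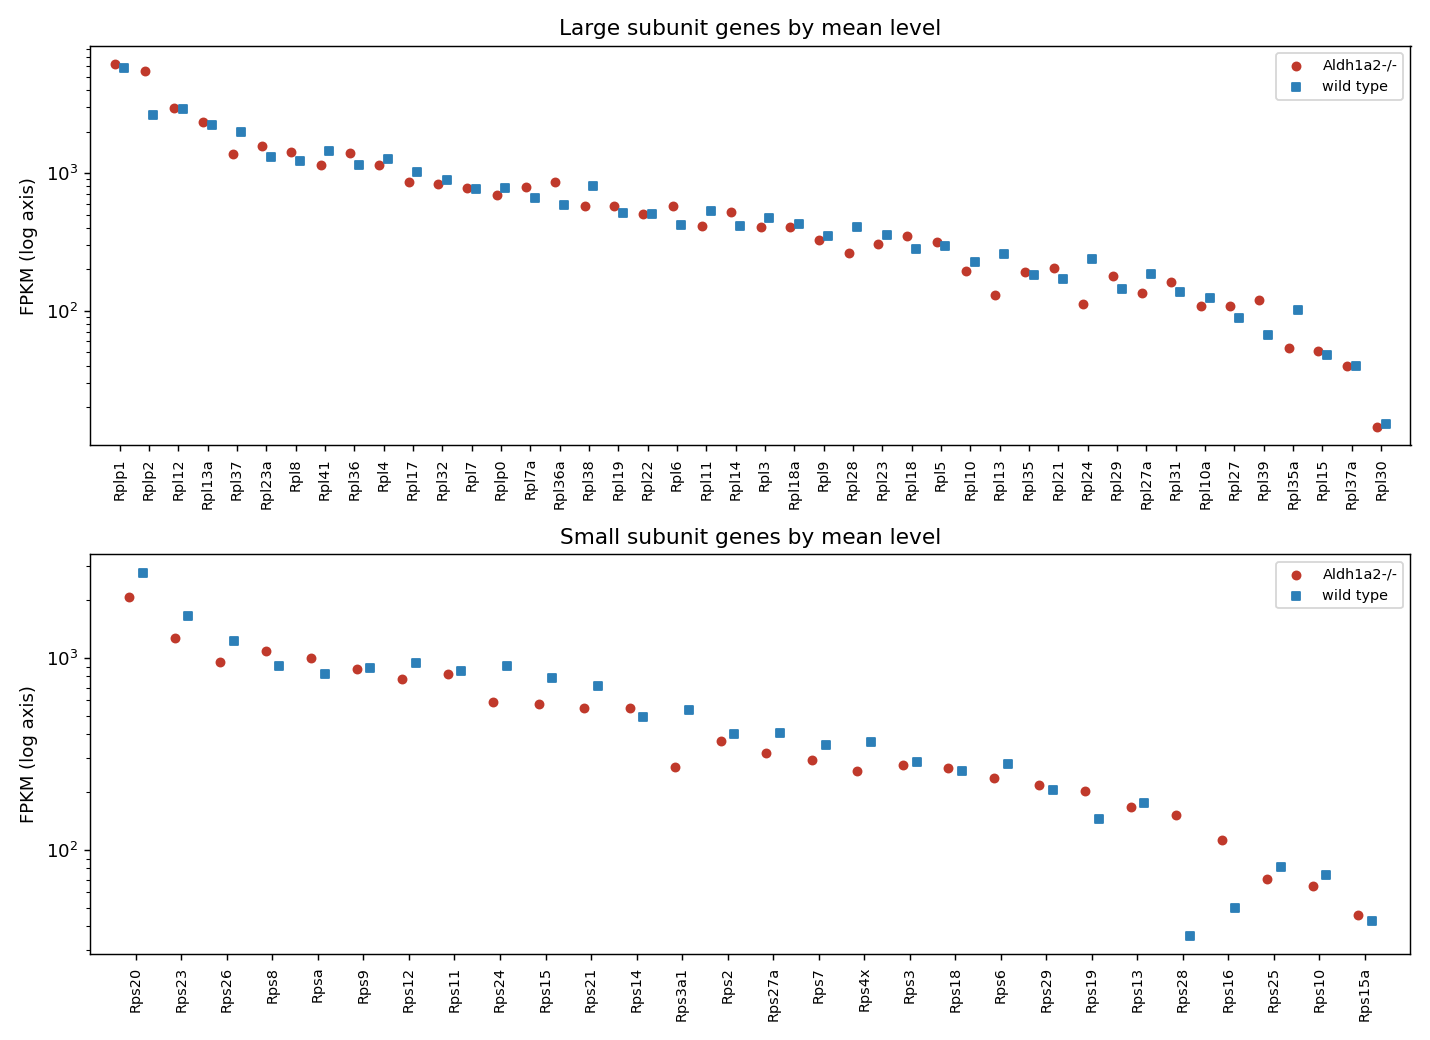
FPKM (log axis) of 72 of the 74 measured subunit genes in the Aldh1a2-/- sample (circles) and the wild-type sample (squares), ordered by mean level, for the large subunit (top) and the small subunit (bottom). Both samples follow a similar order from Rplp1, at 6192 and 5799 FPKM, down to Rpl30, at 14.3 and 15.2 FPKM in Aldh1a2-/- and wild-type trunk.

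The P stalk is the flexible arm of the large subunit that recruits elongation factors, built of Rplp0 and dimers of Rplp1 and Rplp2, with Rpl12 at its base. Rplp2 was at 5515 FPKM in Aldh1a2-/- trunk, against 2624 FPKM in wild-type trunk, a log2 ratio of 1.07 (interval 1.05 to 1.10). Its dimer partner Rplp1, with the values above, had a log2 ratio of 0.09, so the excess of Rplp1 over Rplp2 was small in the Aldh1a2-/- sample and large in the wild-type sample. Rplp0 was at 698 and 778 FPKM (-0.16) and Rpl12 at 2979 and 2925 FPKM (0.03) in Aldh1a2-/- and wild-type trunk. Thus 1 of the 4 stalk genes was past the cutoff.

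Rpl5 and Rpl11 join the 5S rRNA in a particle that enters the large subunit and, when assembly is disturbed, binds the p53 regulator Mdm2. Rpl5 was at 314 FPKM in Aldh1a2-/- trunk and 294 FPKM in wild-type trunk (log2 ratio 0.10), and Rpl11 was at 411 and 532 FPKM (-0.37). Neither was past a cutoff, beside 45.6% of all measured genes and 20.8% of the 1901 abundant ones.

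Rpl39, a very small protein in the wall of the tunnel through which the new peptide leaves the ribosome, was at 120.1 FPKM in Aldh1a2-/- trunk and 66.5 FPKM in wild-type trunk. Its log2 ratio of 0.85 (interval 0.73 to 0.98) lay just past the cutoff, and it fell inside with a pseudocount, with centring on the median of all genes and with upper quartile scaling. Of the 7 measured tunnel genes (Rpl4, Rpl17, Rpl19, Rpl23a, Rpl31, Rpl35 and Rpl39) 1 was thus past a cutoff. That is 14.3%, beside the same 45.6% and 20.8%. Rpl23a, at the tunnel exit where nascent chain factors dock, was at 1584 and 1316 FPKM (0.27) in Aldh1a2-/- and wild-type trunk.

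The 3 large subunit genes below the lower cutoff were Rpl24, Rpl13 and Rpl35a. Rpl24, which reaches across to the small subunit, was at 112 FPKM in Aldh1a2-/- trunk, against 237 FPKM in wild-type trunk, a log2 ratio of -1.09 (interval -1.17 to -1.004). Rpl13 was at 131 FPKM in Aldh1a2-/- trunk and 260.2 FPKM in wild-type trunk (-0.99). Rpl35a, mutated in some families with Diamond-Blackfan anemia, was at 53.4 FPKM in Aldh1a2-/- trunk and 101.7 FPKM in wild-type trunk (-0.93). Rpl13 and Rpl35a lay inside the cutoff on the TPM scale, at -0.83 and -0.77.

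In the small subunit, Rps28 and Rps16 were higher and Rps3a1 was lower. Rps28, which lies by the channel where mRNA leaves the small subunit, was at 152 FPKM in Aldh1a2-/- trunk and 35.7 FPKM in wild-type trunk, a ratio of 4.26 and the largest log2 ratio of the 81 measured rows at 2.09. Its interval, 1.74 to 2.47, was the widest of the measured subunit genes, from an estimated 347 fragments in Aldh1a2-/- trunk and 77 fragments in wild-type trunk. Rps16, whose tail reaches the P-site tRNA, was at 112.0 FPKM in Aldh1a2-/- trunk and 49.8 FPKM in wild-type trunk (1.17). Rps3a1 was at 269 FPKM in Aldh1a2-/- trunk and 532 FPKM in wild-type trunk (-0.98), and lay inside the cutoff on the TPM scale at -0.83.

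The other named small subunit genes were between the cutoffs. Among the most abundant were Rps20, at 2077 FPKM in Aldh1a2-/- trunk and 2777 FPKM in wild-type trunk (-0.42), and Rps23, a protein of the decoding centre, at 1269 and 1655 FPKM (-0.38). Rps26, which contacts mRNA upstream of the start codon, was at 948 FPKM in Aldh1a2-/- trunk and 1230.1 FPKM in wild-type trunk (-0.38). Each of these 3 genes had the lower value in the Aldh1a2-/- sample. The 3 lowest were Rps25 at 70.1 and 81.2 FPKM, Rps10 at 64.5 and 73.8 FPKM and Rps15a at 45.8 and 42.8 FPKM in Aldh1a2-/- and wild-type trunk.

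Among the large subunit genes of highest level, Rpl13a was at 2354 FPKM in Aldh1a2-/- trunk and 2235 FPKM in wild-type trunk (0.08), and Rpl37 at 1383 and 1999 FPKM (-0.53). At the low end, Rpl15 was at 51.4 FPKM in Aldh1a2-/- trunk and 47.8 FPKM in wild-type trunk (0.10) and Rpl37a at 39.5 and 39.9 FPKM (-0.01). Rpl10a, the gene to which the study normalized its qRT-PCR, was at 107.5 FPKM in Aldh1a2-/- trunk and 123 FPKM in wild-type trunk, a log2 ratio of -0.20 (interval -0.29 to -0.10). Of the 74 measured subunit genes, 60 had a log2 ratio between -0.5 and 0.5, beside 3429 of all 9506 measured genes and 1092 of the 1901 abundant ones. The interval, which covers counting error only, excluded 0 in 64 of the 74. It leaves out the division of reads shared with other genes and the variation between embryos, so 64 is not a count of genotype differences.

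Runs of pyrimidines were looked for at the start sites of these genes, because the family is known for the terminal oligopyrimidine tract. A run was counted wherever it lay around the annotated start, before or after it. The counts are therefore not counts of the tract itself, which begins at the first base of the mRNA. RefSeq promoter sequences (build GRCm38.p6) were matched for 56 subunit genes of the table and 10 paralogs and other matches. In the 30 bases around the annotated start, 15 before it and 15 from it on, a run of at least 8 C or T on the sense strand was found in 24 of the 56 subunit genes (42.9%) and in 13.9% of the 27025 genes of the promoter set. The motif CCGGAAG, a site of Ets family factors such as Gabpa, was found on either strand of the window from 250 bases before to 50 after the start in 23 subunit genes (41.1%), against 9.93% of all genes. The motif TATAAA, searched on the sense strand in the 50 bases before the start, was found in 0 of 56, against 3.15% of all genes. A match is a description of the letters only.

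The 30-base windows of the 8 subunit genes past a cutoff are shown to compare their start sites, with the longest run of C or T in capitals. The run reaches 8 bases in 4 of the 8, with both directions on either side of that line: Rplp2 and Rpl39 were higher and Rpl13 and Rpl35a lower among those with such a run, and Rps28 and Rps16 were higher and Rpl24 and Rps3a1 lower among those without. The Rpl13 run starts at -15 and lies wholly before the annotated start, and the Rpl39 run starts at base 7 counted from it. Rpl35a has 3 annotated starts, and the one with the longest run is shown.
Rplp2 (chr7:141447636-141447665, plus strand): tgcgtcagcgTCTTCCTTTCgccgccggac
Rpl39 (chrX:37085208-37085237, minus strand): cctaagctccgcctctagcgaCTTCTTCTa
Rpl13 (chr8:123102335-123102364, plus strand): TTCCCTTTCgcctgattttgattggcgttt
Rpl35a (chr16:33056467-33056496, plus strand): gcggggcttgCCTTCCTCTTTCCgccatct
Rps28 (chr17:33824548-33824577, minus strand): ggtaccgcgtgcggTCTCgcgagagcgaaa
Rps16 (chr7:28350674-28350703, plus strand): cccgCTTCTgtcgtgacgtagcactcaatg
Rpl24 (chr16:55966260-55966289, plus strand): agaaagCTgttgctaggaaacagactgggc
Rps3a1 (chr3:86142654-86142683, minus strand): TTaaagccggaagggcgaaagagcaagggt

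Paralogs are further copies of a ribosomal protein gene, and some of them are used in few tissues. GENCODE M21 annotates Rpl37rt and Rps4l as transcribed processed pseudogenes with no coding sequence. Of the 10 paralog rows 6 were measured, and 2 were lower, or 33.3%, beside 22.0% lower over all measured genes. Rpl22l1, which can take the place of Rpl22 in the large subunit, was at 19.9 FPKM in Aldh1a2-/- trunk, against 48.2 FPKM in wild-type trunk, a log2 ratio of -1.28 (interval -1.52 to -1.05). Rpl22 itself was at 505 and 503 FPKM (0.01), and the coding sequences of the pair share no 75-base stretch, the length of a read. Rpl22l1 made up 3.79% of the summed FPKM of the pair in Aldh1a2-/- trunk and 8.76% in wild-type trunk. Of the 75-base coding stretches of Rpl22l1, 72.3% are also in another annotated gene, so its value is uncertain as that of a single gene. Rpl37rt was at 69.8 FPKM in Aldh1a2-/- trunk and 149 FPKM in wild-type trunk (-1.10), but 79.1% of its 75-base stretches are also in Rpl37, and the settings with which the authors' expectation-maximization step divided such reads are not given in the sources used here.

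The other measured paralogs were between the cutoffs, at 63.2 and 46.7 FPKM for Rpl36al (0.44), 139 and 98.0 FPKM for Rps4l (0.51) and 94.2 and 96.0 FPKM for Rpl7l1 (-0.03) in Aldh1a2-/- and wild-type trunk. Rpl3l, the striated muscle form of Rpl3, and Rpl10l and Rpl39l, known from the testis, were listed at 0 in both samples. Rps27l, which in mouse and human cells is induced by p53, was listed at 0 in Aldh1a2-/- trunk and at 68.1 FPKM in wild-type trunk, so no ratio was taken. Rps19bp1 was at 53.5 FPKM in Aldh1a2-/- trunk and 52.9 FPKM in wild-type trunk (0.01).

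Rps27, Rps27rt and Rps27l show how far rows of the family can and cannot be told apart, and their coding sequences without the stop codon, from GENCODE M21 transcripts, are shown for that reason. Rps27 (chr3:90212522-90213651, minus strand, GRCm38) and Rps27rt (chr9:114982366-114982739, minus strand) are identical over all 252 bases. Rps27l (chr9:66946086-66949516, plus strand) differs from Rps27 at 60 bases, in capitals below, so that the 2 are 76.2% identical and their longest shared run is 11 bases.
Rps27: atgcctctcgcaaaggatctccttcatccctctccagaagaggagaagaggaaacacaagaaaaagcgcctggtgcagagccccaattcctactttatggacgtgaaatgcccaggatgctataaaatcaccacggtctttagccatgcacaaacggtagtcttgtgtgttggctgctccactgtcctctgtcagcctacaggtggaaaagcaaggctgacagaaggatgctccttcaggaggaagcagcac
Rps27rt: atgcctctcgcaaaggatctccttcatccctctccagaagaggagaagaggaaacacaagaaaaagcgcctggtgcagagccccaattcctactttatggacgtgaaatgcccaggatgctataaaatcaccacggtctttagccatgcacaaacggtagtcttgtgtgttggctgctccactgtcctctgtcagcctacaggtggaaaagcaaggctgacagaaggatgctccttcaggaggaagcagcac
Rps27l: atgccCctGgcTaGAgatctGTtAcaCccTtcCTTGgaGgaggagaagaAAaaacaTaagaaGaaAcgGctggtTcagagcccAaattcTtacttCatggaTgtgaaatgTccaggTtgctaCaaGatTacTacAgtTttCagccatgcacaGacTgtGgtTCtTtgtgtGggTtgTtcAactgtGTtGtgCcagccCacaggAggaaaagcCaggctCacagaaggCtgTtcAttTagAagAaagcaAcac

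A 75-base read within the coding part thus separates Rps27l from the other two, and cannot separate Rps27 from Rps27rt. The table gives both Rps27rt and a joint row of Rps27 and Rps27rt at the Rps27 locus. The joint row was at 67.6 FPKM in Aldh1a2-/- trunk and 0.0755 FPKM in wild-type trunk and was not measured, while Rps27rt was at 878 and 494 FPKM, a log2 ratio of 0.83 just inside the cutoff. The sum of the 2 rows was 945 FPKM in Aldh1a2-/- trunk and 494 FPKM in wild-type trunk (0.94), and on the TPM scale Rps27rt alone was past the cutoff at 0.99.

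Other subunit genes had most of their signal in a second row of the same locus. Rpl26, at the tunnel exit, was under 0.001 FPKM in both samples, and the row Gm15772 at its locus was at 2204 FPKM in Aldh1a2-/- trunk and 1531 FPKM in wild-type trunk (0.53). GENCODE M21 gives the name Gm15772 to a processed pseudogene on chromosome 5, and 58.0% of its 75-base stretches are also in Rpl26. Beside Rpl30 stood Gm12191, at 240.4 FPKM in Aldh1a2-/- trunk and 136 FPKM in wild-type trunk, for a sum of 255 and 151 FPKM (0.75). For Rpl34, outside the name rule, the joint row was at 60.8 FPKM in Aldh1a2-/- trunk and listed near 0 in wild-type trunk, and Rpl34-ps1 was listed near 0 and at 427 FPKM, so that the sums of the rows were 60.8 and 427 FPKM (-2.81) in Aldh1a2-/- and wild-type trunk. How the reads of near-identical copies were divided between such rows was not tested.

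**Figure D4:**
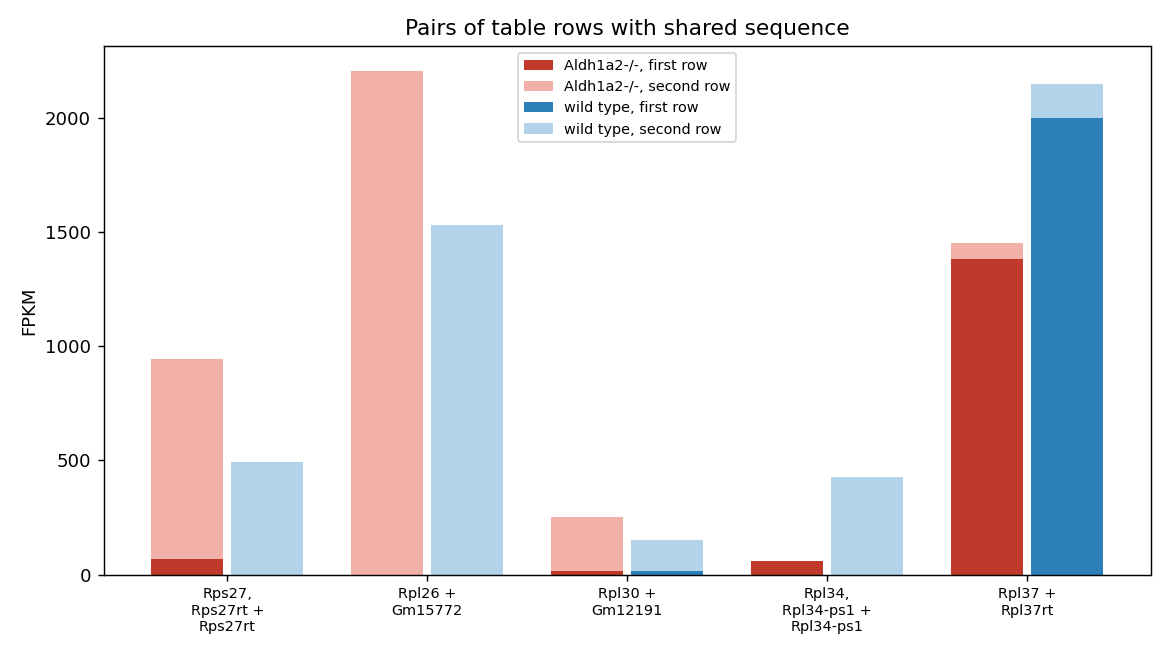
FPKM of 5 pairs of table rows that share a locus or coding sequence, stacked for each sample, Aldh1a2-/- (left bar, red) and wild type (right bar, blue), with the first-named row dark and the second pale. The Rps27 pair sums to 945 and 494 FPKM and the Rpl34 pair to 60.8 and 427 FPKM in Aldh1a2-/- and wild-type trunk.

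Sequence shared with other genes is common in this family, because its mRNAs have left many processed pseudogenes in the genome. For the 74 measured subunit genes a median of 86.0% of the 75-base coding stretches also occur in an annotated transcript of another gene, and in 60 genes the share is above 50%. Of the 14 genes with a share under 50%, which include Rplp0, Rplp1 and Rplp2, 1 was past a cutoff, Rplp2 (7.14%). The log2 ratios of the 14 ran from -0.54 to 1.07 about a median of -0.05. Of the 60 others, 3 were higher and 4 lower (11.7%), with a median of -0.07. Both shares stand beside 45.6% of all measured genes and 20.8% of the 1901 abundant ones. Rps28, Rps16, Rpl24 and Rpl13 have 100% of their coding stretches in other genes, so the 4 are uncertain as single-gene values.

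Introns of ribosomal protein genes often carry small nucleolar RNAs, and 33 rows of small RNAs lay at the loci of 23 of the 87 members. At the Rps16 locus the row AF357399 was at 4207 FPKM in Aldh1a2-/- trunk and 429 FPKM in wild-type trunk. At the Rplp2 locus Snora52 went the other way, at 4.44 FPKM in Aldh1a2-/- trunk and 235 FPKM in wild-type trunk, and at the Rps3a1 locus Rnu73b was listed at 0 in Aldh1a2-/- trunk and at 567 FPKM in wild-type trunk. These transcripts are shorter than the usual fragment, which makes their FPKM a poor measure of level.

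Mouse mutants in 6 ribosomal protein genes have been found through changed body patterning or coat colour. Rpl38, mutated in the Tail short mouse with its changed vertebral identity, was at 573 FPKM in Aldh1a2-/- trunk and 803 FPKM in wild-type trunk (-0.49). Rpl24, mutated in the Belly spot and tail mouse, was the only gene of the 6 past a cutoff, with the values above. This share of 16.7% stands beside 45.6% of all measured genes and 20.8% of the 1901 abundant ones. Rpl27a was at 135 and 186 FPKM (-0.47), Rps7 at 294 and 353 FPKM (-0.26) and Rps19, mutated with Rps20 in mice with dark skin, at 202 and 145.0 FPKM (0.48) in Aldh1a2-/- and wild-type trunk. With Rps20, 5 of the 6 were below 0, beside 41 of the 74 measured subunit genes and 4677 of all 9506 measured genes, and 4 of those 5 were inside the cutoff. The median log2 ratio of the 6 was -0.44, against -0.06 over the 74 subunit genes and 0.02 over all measured genes. Among 20 genes mutated in Diamond-Blackfan anemia, 18 were measured, of which Rps28 was higher and Rpl35a lower. That is 11.1% past a cutoff, beside 45.6% of all measured genes and 20.8% of the 1901 abundant ones.

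By chromosome, 4 members are X-linked. Rpl39 is described above. Rpl36a was at 860 FPKM in Aldh1a2-/- trunk and 585 FPKM in wild-type trunk (0.56), Rpl10 at 195 and 226 FPKM (-0.21) and Rps4x at 258 and 365 FPKM (-0.50). The 4 did not go one way, with 2 above and 2 below 0.

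Other parts of the ribosome are encoded by genes whose names fall outside the rule. Fau, whose product is split into a ubiquitin-like protein and a protein of the small subunit, was at 2062 FPKM in Aldh1a2-/- trunk and 1070 FPKM in wild-type trunk, a log2 ratio of 0.95 and past the cutoff. Of its 75-base coding stretches 100% are also in another annotated gene, so its value is uncertain as that of a single gene. Rack1, the scaffold protein of the small subunit head, which the table lists as Gnb2l1, was at 970 and 1149 FPKM (-0.24) in Aldh1a2-/- and wild-type trunk.

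Lists of related genes place these values among the rest of the protein synthesis machinery. Of 39 translation factors, 38 were measured, 0 were higher and 2 were lower. That is 5.26% past a cutoff, beside 45.6% of all measured genes and 20.8% of the 1901 abundant ones. The 2 were Eif3m, a subunit of initiation factor eIF3, at 40.3 FPKM in Aldh1a2-/- trunk and 86.3 FPKM in wild-type trunk (-1.10), and Eif2s3x, the gamma subunit of eIF2, at 18.2 and 33.6 FPKM (-0.88). The median log2 ratio of the 38 was 0.01 and their SD across genes was 0.37. Of 56 ribosome biogenesis genes, 14 were past a cutoff, 4 higher and 10 lower, with a median log2 ratio of -0.04. That share was below the 45.6% of all measured genes and above the 20.8% of the 1901 abundant ones. Rpf2, which brings the 5S particle into the large subunit, was at 1.95 FPKM in Aldh1a2-/- trunk and 21.8 FPKM in wild-type trunk (-3.48), and Noc3l was at 7.54 and 25.4 FPKM (-1.75). The log2 ratios of the assembly genes had an SD of 0.81, against 0.49 for the 74 subunit genes, and the assembly genes are less abundant, with a median of 49.98 and 43.35 FPKM, against 387 and 417 FPKM over the 76 subunit genes of the table, in Aldh1a2-/- and wild-type trunk.

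RNA polymerase I transcribes the ribosomal RNA, and 10 of 14 genes of the polymerase and its factors were past a cutoff, 4 higher and 6 lower, which is 71.4% beside 45.6% of all measured genes. Taf1b was at 10.3 FPKM in Aldh1a2-/- trunk and 2.75 FPKM in wild-type trunk (1.90), and Taf1d, another part of the same promoter factor, was at 55.7 and 197 FPKM (-1.82). Of 18 regulators of ribosomal protein synthesis, 2 were higher and 6 lower, 44.4% beside the same 45.6%. Mdm2 was at 1.47 FPKM in Aldh1a2-/- trunk and 26.6 FPKM in wild-type trunk (-4.18), and Mycn, a Myc family transcription factor that drives ribosome production, was at 13.002 and 58.9 FPKM (-2.18). The mitochondrial ribosome has a protein family of its own. Of its 77 genes 73 were measured, and 18 were higher and 20 lower, or 52.1% beside 45.6% of all measured genes, with a median log2 ratio of -0.12 and an SD across genes of 1.60. These genes are far less abundant, with a median level of 31.4 FPKM in Aldh1a2-/- trunk and 25.7 FPKM in wild-type trunk, and the part of this in their spread was not tested.

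**Figure D5:**
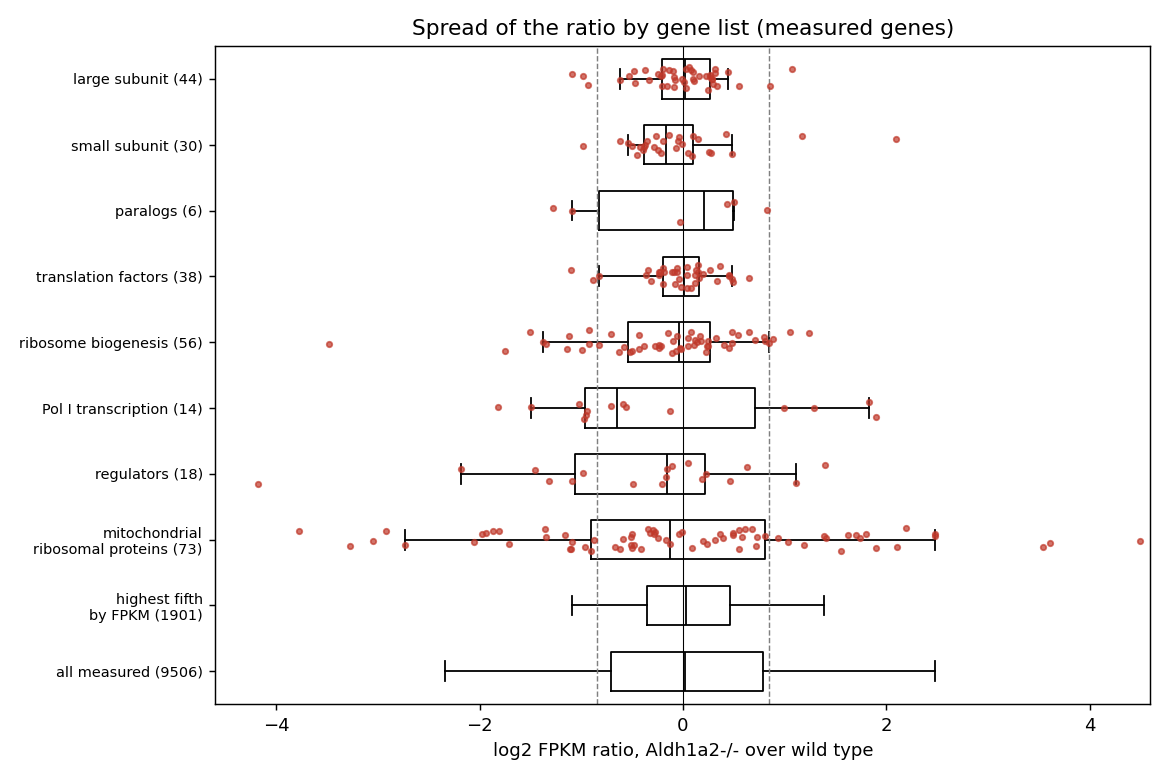
Log2 FPKM ratio of Aldh1a2-/- over wild type for the measured genes of each list (points), with boxes for the middle 50%, a line at the median, whiskers from the 5th to the 95th percentile and dashed lines at -0.85 and 0.85. The subunit genes and translation factors (SD 0.37) gather near 0, while the mitochondrial ribosomal proteins (SD 1.60) spread about as all measured genes do (SD 1.43).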

How the data were processed

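RNA-seq was read from 1 Aldh1a2-/- and 1 wild-type trunk sample (single reads of 75 bases, mm10). STAR, Cufflinks and Cuffdiff are named in the submitters' processing notes, but TopHat and a generalized linear model in the study's methods; transcript abundance came from an expectation-maximization step, per those methods, and versions and settings for multi-mapping reads are not given in the sources used here. The authors deposited 1 table of 24340 rows with FPKM per sample. Its columns from the authors' own comparison (fold change, test statistic, p-value, q-value and call) were not used, and 1 empty line was skipped. The labels describe both a total RNA kit and poly(A) selection.

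Genes with more than 0.5 FPKM in each sample were kept, and the FPKM of Aldh1a2-/- was divided by that of wild type on the log2 scale, with nothing added. Fragment numbers were estimated from steps of low FPKM values in genes with 1 transcript longer than 1000 bases, assuming fragments of 200 bases: 15 of 24 low values in Aldh1a2-/- and 23 of 37 in wild type lay within 2% of a whole fragment. Per-member numbers used the shortest principal transcript of GENCODE M21, which also gave coordinates and 75-base stretches. Genes were named by rule: members past a cutoff or not measured, the 5 highest and 3 lowest of each subunit, paralogs and other name matches, Rpl10a, the stalk, 5S and mouse mutant lists, and from the other lists the 2 with the largest absolute ratio. Fau, Rack1, the X-linked members, the small RNA rows and the partner rows of shared loci were added after their values were seen. Some genes that the rule names are not reported here. The members and gene lists were chosen with earlier results of these data known. Alternatives were floors of 0.1, 1 and 5 FPKM, a floor in either sample, pseudocounts of 0.5 and 1, TPM scale, centring, upper quartile scaling, a cutoff of 1 and rows with status OK. The ratio calculation was tested on simulated data. Python 3.11.15, numpy 2.4.6, pandas 2.3.3, scipy 1.17.1 and matplotlib 3.10.9 were used.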

Additional observations from a re-analysis of the deposited data

How the results depend on the processing

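No paired analysis was possible because there is 1 sample per genotype, and no replicate could be left out. With 4 members higher and 6 lower as the starting counts, the other settings gave 3 to 5 higher and 3 to 7 lower. The counts over all measured genes moved as well. At a floor of 5 FPKM 4 members were higher and 6 lower, beside 1156 and 938 of 6519 genes. The TPM scale gave 5 and 3, beside 2610 and 1805 of 9506 genes. A cutoff of 1 gave 3 and 3, beside 1940 and 1816 of 9506. A floor in either sample gave 4 and 7, beside 3081 and 3812 of 12354. On the TPM scale 3 members were lower, the large and small subunit medians were 0.17 and -0.008 and the log2 ratios of summed FPKM 0.27 and 0.0008. With centring on the median of all genes these 4 values were -0.0034, -0.18, 0.095 and -0.17, and with upper quartile scaling -0.085, -0.27, 0.013 and -0.26. A cutoff of 1 left 3 members lower, since Rpl13, Rpl35a and Rps3a1 lie between -0.85 and -1. The small subunit sum ratio, -0.16 in the report, was -0.1611 with floors of 0.1, 1 or 5 FPKM and with status OK only, because the joint Rps27 row then drops out. With a floor of 0.5 FPKM in either sample and a pseudocount of 0.5 the small subunit median was -0.13. Settings chosen after seeing the data gave a large subunit median of 0.028 without rows that share a locus or sequence. Without the 2 most abundant members of each subunit the sum ratios were -0.025 (large) and -0.19 (small). Without Rplp2 alone the large subunit sum ratio was -0.0023, so on the FPKM scale the positive value in the report, 0.11, rests on Rplp2. This ratio without Rplp2 was not computed on the TPM scale, where the value with Rplp2 was 0.27. None of the 39 genes named by rule passed from one cutoff to the other, which the settings run move the ratios too little to bring about. Signs near 0 did change. Rpl12 went from 0.03 to -0.07 with upper quartile scaling, and Rpl30 from -0.09 to 0.07 on the TPM scale. Among single genes, Rpl39 fell inside the cutoff with a pseudocount of 0.5 (0.847) or 1 (0.84), with centring (0.83) and with upper quartile scaling (0.75). Depth limits Rps28 most among subunit genes, at an estimated 77 fragments in wild type, and counting intervals say nothing of the variation between embryos.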
